A study of Homo sapiens with 8 samples.

Results

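The regions described here are 2047 TEAD4 regions of intermediate rank that were called in WA09 cells under both treatments of the study and that carried no SMAD2 region. Rank is read from the row order of the lists, which no label states to be a ranking. WA09 is an established human embryonic stem cell line, here grown on Matrigel in medium conditioned by mouse embryonic fibroblasts. For 4 h the cells were given SB431542 at 10 µM, or DMSO, its solvent, before ChIP-seq, in which an antibody recovers the DNA bound by a factor for sequencing. The 8 samples of the study formed 8 groups, and 3 of them are used here, each with 1 list of called regions. The members were chosen by 3 measured properties. They lay after row 1000 and up to row 20000 of the TEAD4 list of DMSO cells (the band), they overlapped a TEAD4 region of SB431542 cells by 1 bp or more, and they overlapped no SMAD2 region of DMSO cells. The band held 19000 regions, of which 1955 overlapped SMAD2 and were set aside (288 of these had an SB431542 partner). Of the 17045 left, 2047 had a partner and are the members, and 14998 had none and are called the other rows below. In all, TEAD4 had 289380 listed regions in DMSO and 262109 in SB431542, and SMAD2 had 420548 in DMSO.

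TEAD4 is one of the TEA-domain transcription factors, which bind DNA but need a partner to activate genes. Their main partners are YAP and TAZ, which the Hippo kinase cascade keeps out of the nucleus when it is active. SMAD2 is the signal transducer of activin, Nodal and TGF-β, and SB431542 blocks the type I receptors that phosphorylate it. Activin and Nodal signalling keeps human embryonic stem cells pluripotent and, in other settings, drives them to mesendoderm (the series is about enhancers and cell fate in these cells). The members are regions where TEAD4 was called in DMSO cells and a TEAD4 region of SB431542 cells overlapped by 1 bp or more. SMAD2 was not called there in DMSO cells. Receptor activity is not among the values used here. How many such overlaps the density of the lists alone would give was not tested. Each group was 1 library of 1 line, with no replicate, so no p-value is given. Intervals are 95% Wilson intervals, or Newcombe intervals for a difference of shares, and cover counting error only, with neighbouring regions taken as independent. All positions are on genome build hg19, counted from 1.

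The row limits are a convention, and regions with a partner and no SMAD2 stood on either side of both. The first member was the first row of the band, on chromosome 19 at 13262401 to 13262649, and its partner was row 2339 of the SB431542 list. The last region with a partner and no SMAD2 before it was row 1000, on the same chromosome at 49132951 to 49133699, with a partner in row 145492. At the other limit, the last member was row 19998, on chromosome 6 at 144279951 to 144280299, with a partner in row 2432. The next such region, row 20006 on chromosome 5 at 51303101 to 51303349, had its partner in row 75605. These values describe the limits and nothing is read from them.

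The share of regions called again fell within the band, and most of the fall came in its first 2000 rows. Over the band, 12.0% of rows without SMAD2 had a partner (11.5 to 12.5%), against 5.60% over all rows of the list without SMAD2. The rule used this overlap, so the values are a description. In the 1000 rows up to row 2000, 274 of 891 regions had a partner (30.8%, 27.8 to 33.9%), and in rows 2001 to 3000, 150 of 877 did (17.1%, 14.8 to 19.7%). From row 3001 on the share per 1000 rows lay between 6.90% and 15.7%. The last 1000 rows of the band gave 88 of 906 (9.71%, 7.95 to 11.8%). The first 1000 rows of the band therefore supplied 274 of the members, and the 10000 rows after row 10000 supplied 834.

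**Figure D1:**
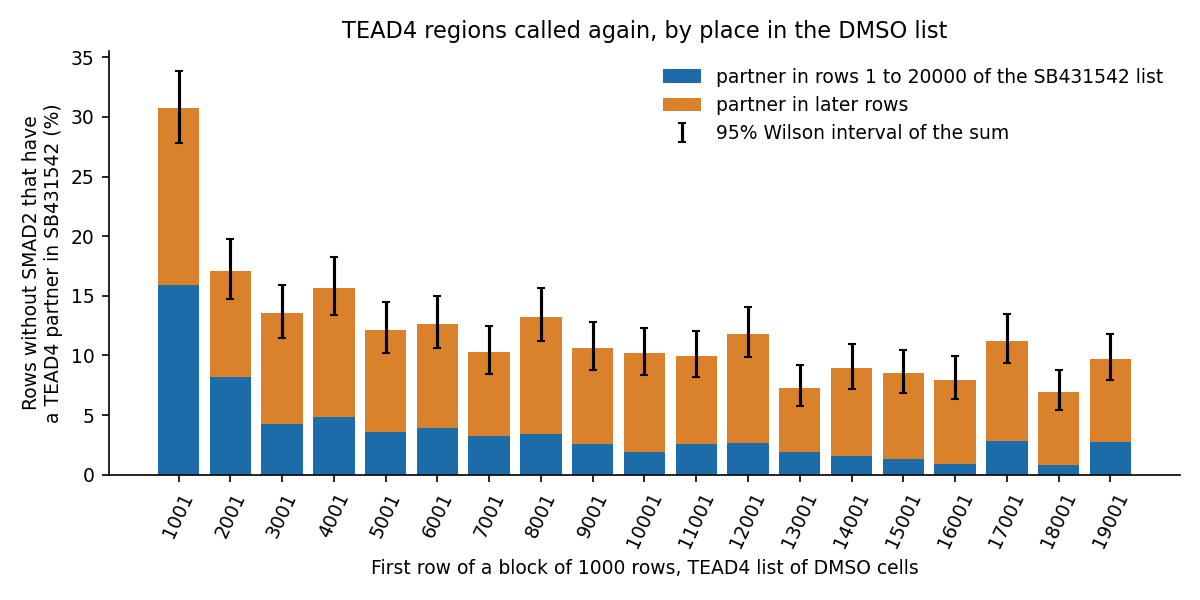
Each bar gives, for 1000 rows of the TEAD4 list of DMSO cells, the percentage of rows without SMAD2 that overlapped a TEAD4 region of SB431542 cells, split by the partner's row, with the 95% Wilson interval of the sum. The bar falls from 30.8% in the first block to 6.90% in the last but one, and the part with partners in rows 1 to 20000 falls from 15.9% to 0.78% in the same blocks; the last block is higher again, at 9.71% and 2.76%.

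The partners were spread over the whole SB431542 list. Their median row was 66440 (interquartile range 13305 to 152333), the smallest 37 and the largest 262077. The rule asked for a partner and not for its row. Of the members, 618 (30.2%, 28.2 to 32.2%) had a partner in the first 20000 rows, 326 (15.9%) in the first 5000, and 60 (2.93%) in the first 1000. A partner in the later 50% of the SB431542 rows was found for 614 members (30.0%, 28.0 to 32.0%). Among the 606 regions of rows 1 to 1000 that met the same 2 conditions, 73.6% (69.9 to 77.0%) had a partner in the first 20000 rows, and among the 12313 regions after row 20000 this was 13.4% (12.8 to 14.0%). The members thus lay between these groups, and the 3 intervals do not overlap. Within the members, Spearman's rho between the rows of the 2 lists was 0.22 over 2047 regions, compared with 0.50 over the 606 regions before them and 0.02 over the 12313 after them. These are descriptions of regions that share 1 pair of libraries. Both lists hold stretches, described below, in which a row number gives position and not rank, and the groups span unlike row ranges. The values of rho are therefore not a like comparison.

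Counted from the side of the SB431542 list, members were densest in the first 5000 rows. The first 1000 held 60 members and the rows from there to 5000 held 66.5 per 1000, a gap within the counting error of the first. Rows between 5000 and 20000 held 19.5 per 1000, and rows after 180000 held 4.29. The members with a partner in the first 20000 rows also came from an earlier part of the DMSO band. Their share of all rows without SMAD2 fell from 15.9% (13.7 to 18.5%) in the first 1000 rows of the band to 1.92% (1.66 to 2.22%) after row 10000. Members with later partners made up 14.8% (12.6 to 17.3%) and 7.34% (6.82 to 7.89%) of the same rows. The first kind fell by a larger factor than the second.

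**Figure D2:**
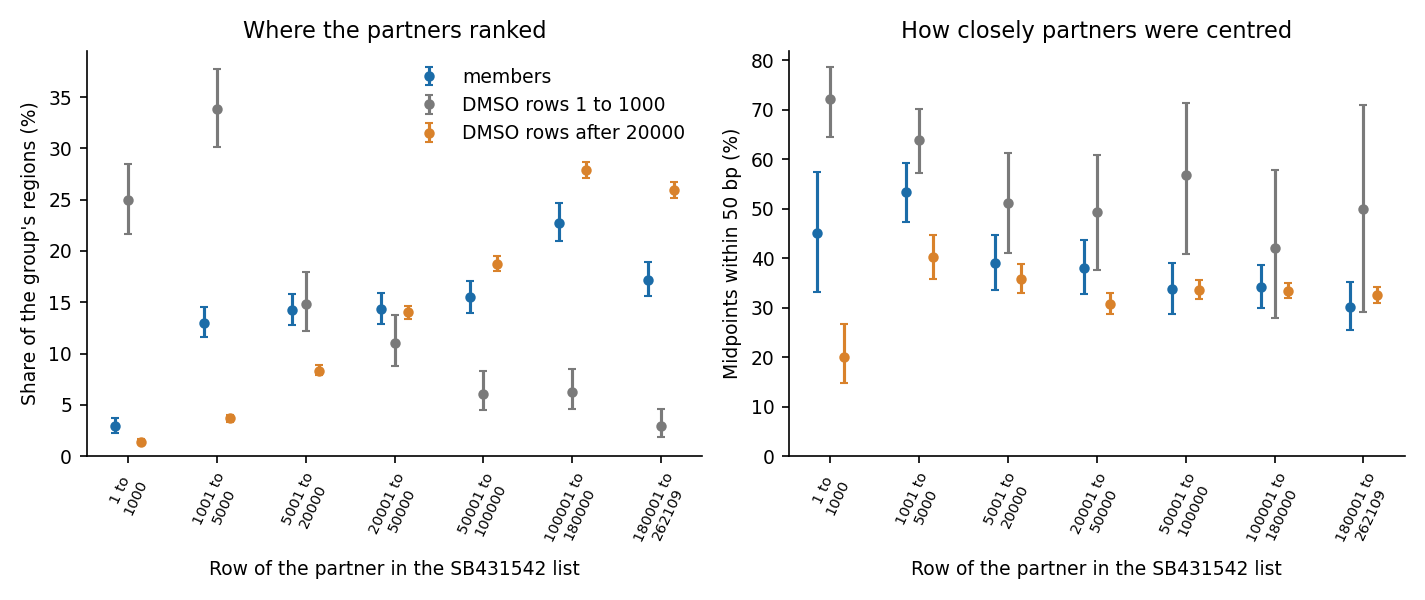
The left panel gives the share of each group's regions by the row of their SB431542 partner, and the right panel the share of those regions whose midpoint lay within 50 bp of the partner's; bars are 95% Wilson intervals. Members (blue) lie between DMSO rows 1 to 1000 and DMSO rows after 20000 at both ends of the left panel, with 13.0% at SB431542 rows between 1000 and 5000 and 17.2% after row 180000.

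Around the regions of the band, SB431542 regions of high and low rank were placed differently. For each 1000 DMSO regions without SMAD2 in the band, the first 20000 SB431542 rows gave 132 midpoints per kb (120 to 144) within 100 bp of the DMSO midpoint, and 9.66 (9.14 to 10.2) at 1 to 5 kb. The SB431542 rows after 20000 gave 254 (237 to 271) within 100 bp and 98.1 (96.4 to 99.7) at 1 to 5 kb. At 200 to 1000 bp the high-ranked regions were at 11.8 per kb (10.6 to 13.1), still above their level at 1 to 5 kb. The later rows were at 106 per kb (102 to 110) there, also above theirs. Most SB431542 regions are in the later rows, and these were the more frequent near the midpoint. Measured in midpoints per kb, the rise from 1 to 5 kb to within 100 bp was larger for the later rows. As a multiple of the level at 1 to 5 kb, it was larger for the early rows. The ranges come from the square root of each count and cover counting error only.

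**Figure D3:**
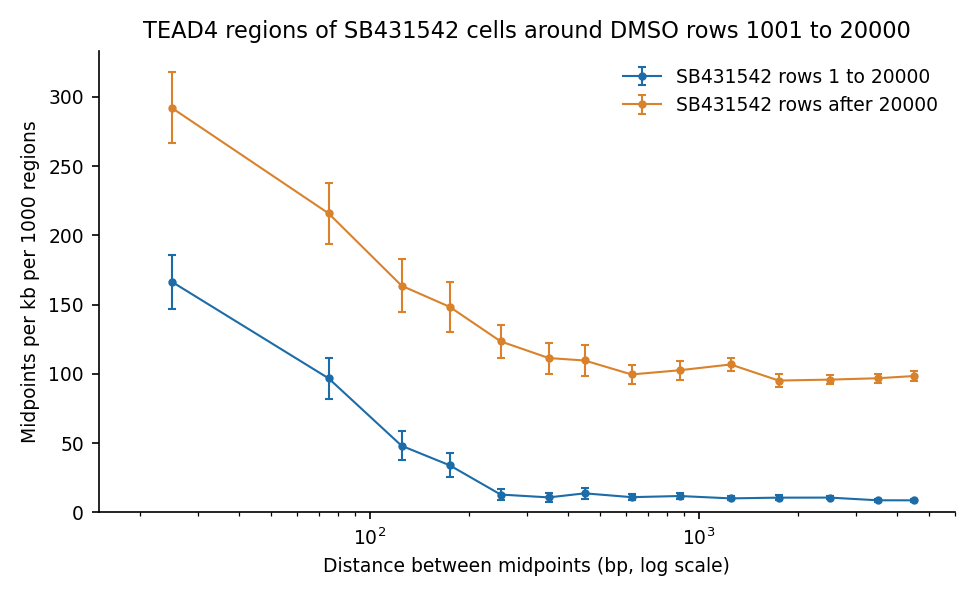
The curves give the number of SB431542 TEAD4 midpoints per kb per 1000 DMSO regions, against the distance between midpoints in bp on a log axis, for the 17045 DMSO rows of the band without SMAD2; bars are 1.96 times the square root of the count. SB431542 rows 1 to 20000 go from 167 within 50 bp to 8.74 at 4 to 5 kb, and later rows from 292 to 98.5.

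Partners were centred loosely on the members, and how closely varied with the row of the partner. The median distance between midpoints was 72.5 bp (interquartile range 31.5 to 133 bp), against 38.0 bp in the first 1000 rows and 79.0 bp after row 20000. The midpoints of 767 members (37.5%, 35.4 to 39.6%) lay within 50 bp of each other. This share was 60.2% (56.3 to 64.1%) in the first 1000 rows and 33.1% (32.3 to 34.0%) after row 20000. By partner row it was 45.0% (33.1 to 57.5%) for partners in the first 1000 rows, 53.4% (47.4 to 59.3%) for partners between rows 1000 and 5000 and 30.1% (25.6 to 35.1%) for partners after row 180000. The median partner was 178 bp wide and the median overlap was 141 bp, so that most of the narrower region was usually covered (median 98.0%). For 944 members (46.1%) the partner lay wholly inside the DMSO region, and for 215 (10.5%) the overlap was shorter than 50 bp. The partner was shifted to neither side: its midpoint lay a median of 1.5 bp below that of the member. In 83 members 2 or more SB431542 regions overlapped, of which the one of smallest row was used, and no partner was shared by 2 members.

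Members were wider than the other rows of the band. The overlap in the rule depends on width by construction, so this is a description. The median was 299 bp in both groups, but the mean was 335 bp (SD 115, n = 2047) for members and 294 bp (SD 81.4, n = 14998) for the others, a difference of 40.3 bp (35.2 to 45.5). Within blocks of 1000 rows it was 35.3 bp (30.2 to 40.4). Of the regions of at most 200 bp, 9.22% (7.98 to 10.6%) had a partner, and of those over 450 bp, 27.7% (24.7 to 30.9%). The wide members had high-ranked partners more often: the partner lay in the first 20000 rows for 98 of the 224 members over 450 bp (43.8%), and for 49 of the 169 members of at most 200 bp (29.0%). With an overlap of 50% of both regions required, the difference turned to -5.62 bp (-11.0 to -0.21). This setting leaves out wide regions with narrow partners by construction, and whether that accounts for the change of sign was not tested.

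Regions in short stretches of the row order were called again more often than those in long ones. The rule used the overlap compared here, so the values are a description. The rows of the DMSO list form stretches within which chromosome names run backwards in alphabetical order (Y, X, 9 and so on down to 1) and starts descend, before the order begins anew. Within a stretch, a row number gives position and not rank. The SB431542 list had 6776 such stretches, the longest of 1780 rows. The band touched 514 such stretches, and 15 of them, of 283 to 1914 rows, held 12907 of its rows (67.9%). The remaining rows lay in short stretches, some of them between the long ones. Long means 200 rows or more, a limit chosen after the order had been seen. From row 2582, where the first long stretch began, to row 20000, 594 of 4088 rows without SMAD2 in short stretches had an SB431542 partner (14.5%, 13.5 to 15.6%), against 1077 of 11547 in long ones (9.33%, 8.81 to 9.87%), a difference of 5.20 points (4.02 to 6.43).

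The difference between short and long stretches was present along the band and for partners of high rank. It was 9.65 points (5.98 to 13.6) in rows 2582 to 5000, 5.50 points (3.28 to 7.87) between rows 5000 and 10000 and 3.99 points (2.55 to 5.52) after row 10000. Partners in the first 20000 SB431542 rows were found for 5.16% of the short-stretch rows and 1.84% of the long-stretch rows, and later partners for 9.37% and 7.48%. Mean widths were alike (296 and 299 bp), and at equal width the difference was 5.26 points (4.07 to 6.45). Among regions of 349 bp, for example, 76 of 402 in short stretches (18.9%) and 135 of 1312 in long ones (10.3%) had a partner. SMAD2 overlap did not follow the same direction, with 9.40% of short-stretch rows and 10.5% of long-stretch rows, a difference of -1.14 points (-2.12 to -0.11). Some rows lay within 500 kb of an empty stretch, a part of the genome of 1 Mb or more without regions in all 3 lists. They made up 1.09% of the short-stretch rows and 0.38% of the long-stretch rows. Without them the difference in partners was 4.79 points (3.62 to 6.02).

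**Figure D4:**
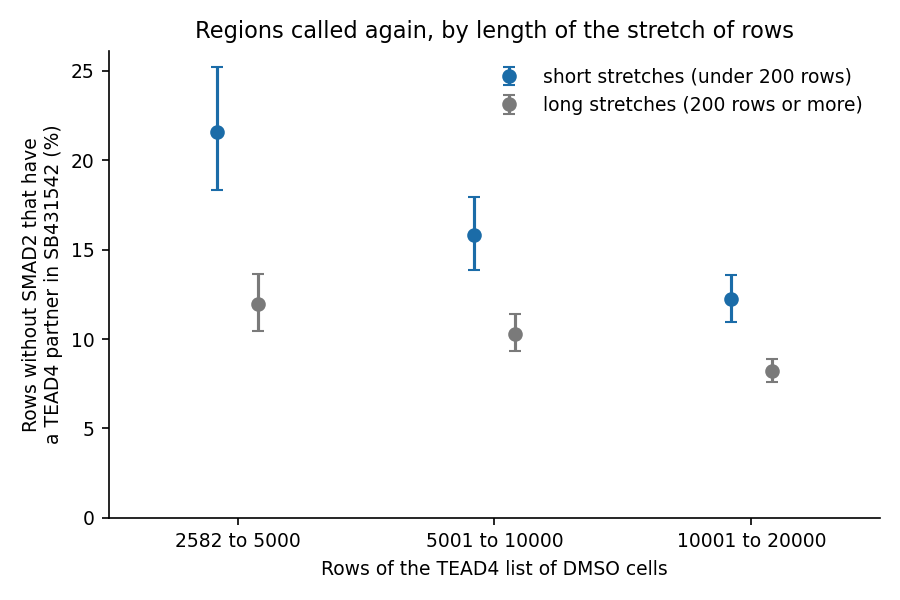
Points give the percentage of DMSO rows without SMAD2 that had an SB431542 partner, in short (blue) and long (grey) stretches of the row order, for 3 ranges of rows; bars are 95% Wilson intervals. Short stretches lie above long ones in each range, at 21.6% against 11.9%, 15.8% against 10.3%, and 12.2% against 8.23%.

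The members with the smallest sum of both rows included compact, well-centred regions. The smallest sum belonged to a region on chromosome 10 at 42357001 to 42357299 (row 1402), whose partner in row 259 was 1483 bp wide and which lay within 500 kb of an empty stretch. The next was on chromosome 11 at 118486001 to 118486249, in row 1110, with a partner in row 564 at 118486034 to 118486392. It was followed by a region on chromosome 17 at 27369701 to 27369999 (row 1215, partner in row 590, 34.1 kb from a TEAD4 region of the first 1000 rows). The region on chromosome 6 at 110832701 to 110832949 (row 1024) lay wholly inside its partner in row 791, with midpoints 17.0 bp apart and the nearest SMAD2 region 351 bp away. On chromosome 3, the region at 72747251 to 72747649 (row 1068) enclosed its partner in row 789, with midpoints 3.5 bp apart. Of these 5 regions, the one beside the empty stretch was the least well centred, at 568 bp.

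Many of the leading SB431542 rows lay beside empty stretches, and members with partners among them did so less often than those rows as a whole. Of all first 1000 SB431542 rows, 491 lay within 500 kb of one (49.1%, 46.0 to 52.2%). The smallest partner row, 37, belonged to a region far down the band, on chromosome 16 at 34022751 to 34022949 (row 15053), and the next, 55, to one on chromosome 11 at 85194851 to 85195199 (row 8260). Of the 10 members with the smallest partner rows, 5 lay within 500 kb of an empty stretch, among them the regions on chromosome 4 at 49512601 to 49512949 (row 6414, partner in row 320) and 49646901 to 49647349 (row 4862, partner in row 521). Over all members 38 did (1.86%, 1.36 to 2.54%), against 0.46% (0.36 to 0.58%) of the other rows. Among the 60 members with a partner in the first 1000 rows 12 did (20.0%), below the 49.1% of those rows and below the 103 of 174 (59.2%) among DMSO regions after row 20000 with a partner there. Their share was above that of DMSO rows 1 to 1000 with a partner there, of which 0 of 151 lay beside an empty stretch. Among the 266 members with a partner between rows 1000 and 5000 3 did (1.13%). Without regions beside empty stretches 2009 members were left, and 29.8% of them had a partner in the first 20000 rows.

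Members lay near the leading TEAD4 regions somewhat more often than the other rows did. A region of DMSO rows 1 to 1000 was within 50 kb of 124 members (6.06%, 5.10 to 7.18%) and of 648 other rows (4.32%, 4.01 to 4.66%), a difference of 1.74 points (0.73 to 2.90). The difference was 1.64 points (0.54 to 2.74) within blocks of 1000 rows and 1.61 points (0.51 to 2.71) at equal width. For members with a partner in the first 20000 rows the share was 7.77% (5.91 to 10.1%), and for those with a later partner 5.32% (4.27 to 6.61%), a difference of 2.45 points (0.19 to 5.05). The interval of the difference from the other rows included 0 without the widest 1% of each list (0.84 points, -0.091 to 1.95) and after row 5000 alone (1.14 points, -0.0044 to 2.51). Any TEAD4 region of DMSO cells within 1 kb was found for 17.2% of members and 15.1% of the other rows, a difference of 2.19 points (0.51 to 3.98). Within 5 kb the difference was 1.95 points (-0.30 to 4.16), and within 1 kb for members with later partners it was 1.39 points (-0.53 to 3.48), so that both intervals included 0.

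Most members had no other member within 50 kb. Of the 2047, 224 (10.9%) had another member within 50 kb and 74 (3.62%) within 10 kb, and 1823 stood alone. These shares have no reference group beside them, so they do not show whether members cluster. Chains with at most 50 kb between neighbouring midpoints numbered 100 of 2 members and 8 of 3, with none longer. One chain of 3 lay on chromosome 4 from 8501151 to 8570499, with DMSO rows 1392 to 18419 and partners that all ranked high (rows 1066 to 9084). Another, on chromosome 15 from 74753451 to 74824099, had partners from row 2821 to 126338. A chain on chromosome 16 from 22629251 to 22647099 had DMSO rows 1172 to 11154 and partners in rows 71368 to 154956 only. Of the chains of 3, the one with the smallest DMSO row, on chromosome Y from 59004651 to 59019799 (rows 1023 to 1891), lay beside an empty stretch, and another on chromosome 4 from 49094501 to 49158599 held partners as far apart as rows 594 and 247783.

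SMAD2 regions were no more and no less frequent near members than near the other rows, as far as these numbers can show. The rule barred overlap with SMAD2 and did not use distance. A SMAD2 region lay within 1 kb of 578 members (28.2%, 26.3 to 30.2%) and of 4181 other rows (27.9%, 27.2 to 28.6%), a difference of 0.36 points (-1.68 to 2.47). The median gap was 2151 bp for members and 2101 bp for the others. At 1 to 5 kb there were 151 SMAD2 midpoints per kb per 1000 members (145 to 157) and 155 per 1000 other rows (153 to 157). Within 5 kb, members with a partner in the first 20000 rows had a SMAD2 region less often than the other rows, at 74.9% against 79.0%, a difference of -4.06 points (-7.69 to -0.74), and the members with later partners had one in 79.6%. Set against the members with later partners the difference was -4.72 points (-8.81 to -0.81). These were 2 of 8 such comparisons over distances and partner classes, the other 6 had intervals that included 0, and within 1 kb the first difference was -1.18 points (-4.59 to 2.52).

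**Figure D5:**
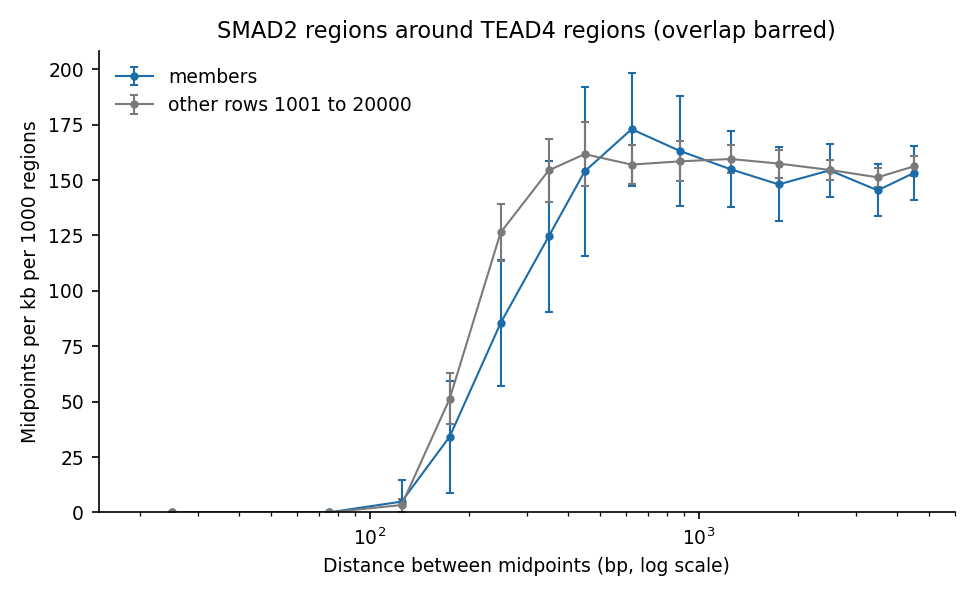
The curves give SMAD2 midpoints of DMSO cells per kb per 1000 TEAD4 regions, against the distance between midpoints in bp on a log axis, for members (blue) and other rows (grey); bars are 1.96 times the square root of the count. Both are at 0 within 100 bp, where the rule bars overlap, and at 1 to 5 kb members are at 151 and other rows at 155. At 200 to 300 bp, where regions of unlike width are barred to unlike distances, members are at 85.5 and other rows at 126.

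The members came from every chromosome of the list, and outside chromosome Y in shares close to those of the band. Among chromosomes other than Y, the share of rows without SMAD2 that had a partner was highest on chromosome 16 (72 of 492, 14.6%, 11.8 to 18.0%), chromosome 15 (73 of 516, 14.1%, 11.4 to 17.4%) and chromosome 1 (199 of 1424, 13.97%, 12.3 to 15.9%). It was lowest on chromosome 12 (77 of 796, 9.67%, 7.81 to 11.9%) and chromosome X (83 of 822, 10.1%, 8.22 to 12.3%). The intervals of chromosomes 16 and 12 overlapped by a little, so that no order among neighbouring chromosomes can be read. On chromosome Y, 4 of 5 rows had a partner, and 3 of these 4 form the chain named above. Those 3 lay within 500 kb of an empty stretch, and whether calls on this chromosome reflect binding there was not tested. That chromosome held 0.20% of the members against 0.03% of the band's rows without SMAD2. On chromosome 19, which had 43 members of 322 rows (13.4%), 19 of the partners ranked in the first 20000 rows.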

How the data were processed

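The authors deposited 1 list of called regions each for TEAD4 in DMSO, TEAD4 in SB431542 and SMAD2 in DMSO cells. The other 5 of the 8 samples were not analysed here. A deposited row names a chromosome with start and end coordinates (bp), with no score, count or header. Per the submitters' processing notes, positions refer to hg19. The sources used here do not name the aligner, caller, threshold or control library, so depth is unknown and no occupancy level was computed. No label states that rows are ranked. All starts in the DMSO lists are multiples of 50 bp, against 1.97% of the SB431542 starts, so list making and treatment cannot be told apart.

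Overlaps, distances between midpoints, gaps between edges (for SMAD2) and Wilson and Newcombe intervals were computed in Python 3.11.15 with NumPy 2.4.6, pandas 2.3.3 and SciPy 1.17.1, and drawn with matplotlib 3.10.9. The functions were tested on simulated data. Of several partners, the one of smallest row was used. Named regions are those with the smallest rows, partner rows or sums of rows, those at the row limits, and the longest chains; the first of each are printed. Members, lists and comparisons were chosen with earlier results of these data known. Genes, promoters and sequence motifs need an hg19 reference and were not analysed here.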

Additional observations from a re-analysis of the deposited data

How the results depend on the processing

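Of 88 recomputed values for 7 results, 59 stayed inside the interval of the reported value. Equal row blocks, equal widths, limits moved to the ends of stretches (rows 1023 to 19986), the nearest partner and other stretch limits were chosen after seeing the data, and so was the comparison of short with long stretches. The share of the band's rows that were members was 10.8%. It was 4.13% with 50% of both regions, 6.89% with midpoints within 100 bp, 9.65% without the widest 1%, 17.05% up to row 5000, 9.10% after row 5000, 9.15% with no SMAD2 region within 500 bp, 12.3% with the SMAD2 rule dropped and 3.25% with the first 20000 SB431542 rows. In the first 5 of these settings, the share of partners in the first 20000 rows was 51.1, 34.3, 24.7, 43.1 and 23.7%. The share of midpoints within 50 bp became 63.4% with 50% of both regions, 59.7% with midpoints within 100 bp, 40.6% up to row 5000 and 45.8% with the first 20000 SB431542 rows. The width difference was -5.62 bp with 50% of both regions, 25.8 bp with midpoints, 22.3 bp without the widest 1%, 55.6 and 27.3 bp in the earlier and later rows and 60.8 bp with the first 20000 SB431542 rows. The first of these reversed the sign, and how much of this the setting itself gives was not tested. Nearness to rows 1 to 1000 rose to 3.36 points with the first 20000 SB431542 rows. The difference between short and long stretches was 3.07 points with 50% of both regions, 3.96 without the widest 1%, 9.65 up to row 5000, 3.32 with the first 20000 SB431542 rows and 7.07 with a stretch limit of 100 rows. The interval of this difference excluded 0 in all 15 settings. They reuse the same lists and the overlap that the rule used, so this count is a description. The SMAD2 difference within 1 kb had an interval that included 0 in all 14 settings. Stricter overlap and shorter lists lower the share of members by construction. The limit of 100 bp on midpoints leaves out distant pairs and so raises the share within 50 bp by construction. The cause of the other shifts was not tested. No paired analysis was possible because no condition had more than 1 library, and none could be left out. Alternatives that need an hg19 sequence or annotation were not run, and the share of partners in the first 20000 rows has no value where only those rows are used. Depth and calling threshold are unstated, so a missing call is a region not detected, at a limit that is unknown.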
